A study of Mus musculus with 12 samples.

Results

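The Rab GTPases are the family of small GTP-binding proteins that direct vesicles and granules between the membranes of a cell, and their messages were followed through mouse granulopoiesis. Members were taken by name from the array's probe table, as genes whose symbol is Rab followed by digits and at most a pair of lower-case letters, from rows of the array that carry 1 gene symbol. Of the 19937 genes tested, 62 fit this pattern. Rab3ip and Rab5if, which are proteins that interact with Rabs, and Rab10os, an opposite-strand transcript, were left out, so that 59 Rab GTPase genes remained. The study hybridised total RNA of 4 bone marrow populations, sorted by FACS from C57BL/6 mice, to 12 Affymetrix Mouse Gene 1.0 ST arrays, 3 per population. LSK cells (Lin-, Sca1+, cKit+) contain haemopoietic stem cells and early progenitors. Cells gated with Gr-1, cKit, CD34 and CD16/32, once lineage-positive cells had been excluded, gave promyelocytes, myelocytes and granulocytes, which follow one another on the way to the neutrophil. The labels name no transgene and no treatment for any group, and the age of the mice is not given in the sources used here. The 3 arrays of a population are labelled as biological replicates, with no word on whether the animals were separate, and the spread that enters each p-value may therefore be partly technical.

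A Rab is switched on by an exchange factor that loads GTP and switched off by a GTPase activating protein, and in its active form recruits effectors such as motors, tethers and fusion factors to 1 membrane compartment. Each Rab keeps to its own compartments, so the family can be read as a set of addresses for traffic from the Golgi, through endosomes and lysosomes, and to the cell surface. Neutrophil precursors build their granules in successive waves, the primary or azurophil granules in promyelocytes and the secondary or specific granules in myelocytes, and release of these granules from the mature cell depends on Rabs of the Rab27 and Rab3 type.

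Values are the deposited RMA values on the log2 scale, and each difference is the later minus the earlier population, given ± its standard error over groups of 3 arrays. Levels of different genes are not set against each other, since probes differ in brightness. The labelled populations carried their defining markers. The mean of 5 measured LSK markers was 10.22 or more on each LSK array. That of 6 promyelocyte markers, most of them primary granule genes, lay between 10.9 and 11.5 on promyelocyte arrays. That of 6 secondary granule stage markers was 12.5 on each myelocyte array. That of 6 granulocyte markers lay between 11.4 and 11.6 on granulocyte arrays. Each list was higher in its own population than on any array of another. Some arrays also carried messages of other cells. The mean of 6 eosinophil markers was 8.39, 5.60 and 8.79 on promyelocyte arrays 1, 2 and 3, against 4.63 to 4.78 on LSK arrays, and that of 8 basophil and mast cell markers was 9.23, 8.33 and 7.46 on myelocyte arrays 1, 2 and 3 and 6.69 to 8.15 on promyelocyte arrays, against 4.83 to 5.53 on LSK arrays. The mean of 6 monocyte and macrophage markers was 8.48, 7.79 and 6.79 on the myelocyte arrays and 8.88, 8.09 and 7.99 on the promyelocyte arrays, against 5.81 to 6.81 on LSK arrays. The part of such cells in the Rab values was not tested, and in sorted bulk populations a larger share of cells with a message and more of it per cell cannot be told apart.

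Most Rab genes were detected and most moved during differentiation. A level of 4.51, the 95th percentile of the means of 1194 olfactory and vomeronasal receptor genes, marks dim signal. Of the 59 Rab genes, 45 lay above it in every population, 8 in some and 6 in none (10.2%, beside 29.6% of all genes), namely Rab3b, Rab3c, Rab15, Rab30, Rab33a and Rab42. By the moderated F test of limma, 42 Rab genes (71.2%) differed among the 4 populations at an adjusted p under 0.05, beside 54% of all genes tested. The lowest mean fell in LSK cells for 27 members and in promyelocytes for 19, and the highest fell in myelocytes for 17 and in granulocytes for 27. Such counts were not made over all genes, so they describe the members only.

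**Figure D1:**
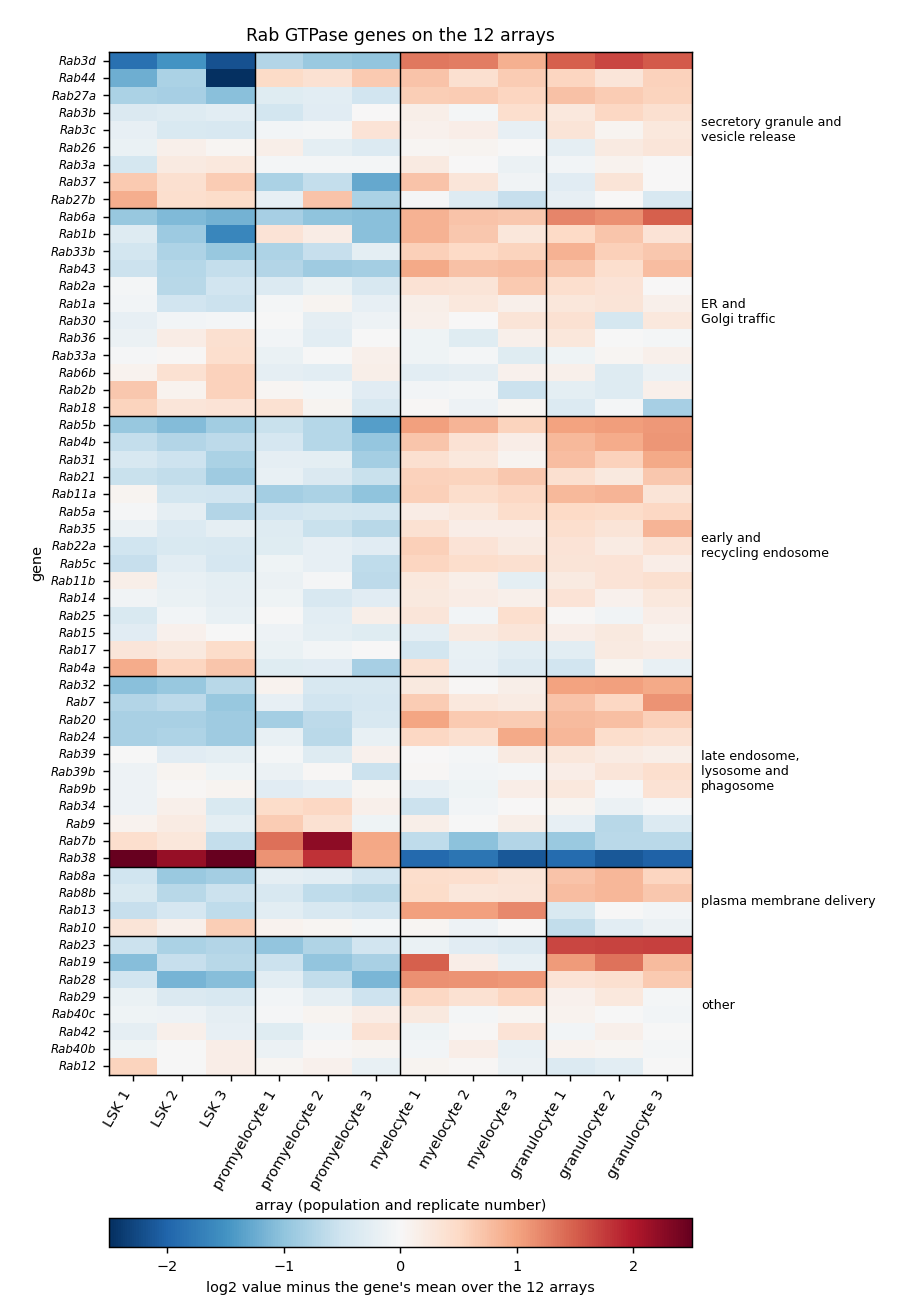
Each row is 1 of the 59 Rab genes, grouped by the compartment it is known to serve, and each column 1 of the 12 arrays; colour gives the log2 value minus the gene's mean over the arrays, with values beyond the ends of the bar drawn in its end colours. Most rows that change turn between the promyelocyte and the myelocyte arrays, where Rab38 and Rab7b were the only members called lower. In granulocytes against LSK cells, 33 members were higher and 10 lower by limma's adjusted p with no limit on the fold. The shares of all genes were 26.6% and 25.3%.

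The increase was placed at the step to the myelocyte. A gene was called where its difference passed an adjusted p under 0.05 (limma, Benjamini-Hochberg over all 19937 genes) and its size was 2-fold or more. In myelocytes against promyelocytes, 12 Rab genes were higher (20.3% of the members), beside 7.61% of all genes, and 2 were lower (3.39%), beside 9.87% of all genes. The median difference of the 59 members was 0.42 at this step, that of all genes 0.01. The 12 genes were Rab3d, Rab28, Rab6a, Rab5b, Rab43, Rab13, Rab11a, Rab20, Rab19, Rab37, Rab4b and Rab33b, and they serve every compartment group that was distinguished. With no limit on the fold, 27 members were higher and 3 lower at this step, beside 15.6% and 19.1% of all genes. All 3 myelocyte arrays were above all 3 promyelocyte arrays for 29 members and below them for 4, beside 21.5% and 22.5% of all genes.

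Fewer Rab genes, and fewer of all genes, were called at the steps on either side. In promyelocytes against LSK cells, 2 members were higher (3.39%, beside 1.61% of all genes) and 3 were lower (5.08%, beside 2.75%). The median difference there was 0.04 for members and for all genes. In granulocytes against myelocytes, 1 member was higher (1.69%, beside 2.35% of all genes) and 1 was lower (1.69%, beside 5.96%). The median was 0.06 for members and 0.09 for all genes. Without promyelocyte 3 the count of members higher in promyelocytes was 4, and without myelocyte 1 the count higher in granulocytes was 2. Over the whole course, granulocytes against LSK cells, 20 members were higher (33.9%, beside 9.59% of all genes) and 1 was lower (1.69%, beside 16.5%). Granulocytes against promyelocytes gave 17 higher (28.8%, beside 10.1% of all genes) and 2 lower (3.39%, beside 16.3%). Without LSK 2, without LSK 3 and without granulocyte 2 the lower count of the whole course was 2. These 2 longer comparisons share their granulocyte arrays. In each of the 5 comparisons the arrays of the 2 populations did not overlap for any called member, and 32 members were called in none of them. A 2-fold call at this spread leaves little room for overlap, so its absence adds no support to the calls. Neither count was made over all genes. With no limit on the fold the members were 5 higher and 4 lower in promyelocytes than LSK cells (5.79% and 7.22% of all genes), 5 and 2 in granulocytes than myelocytes (8.07% and 13.9%), 30 and 3 in granulocytes than promyelocytes (25.7% and 24.2%), and 33 and 10 in granulocytes than LSK cells (26.6% and 25.3%).

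**Figure D2:**
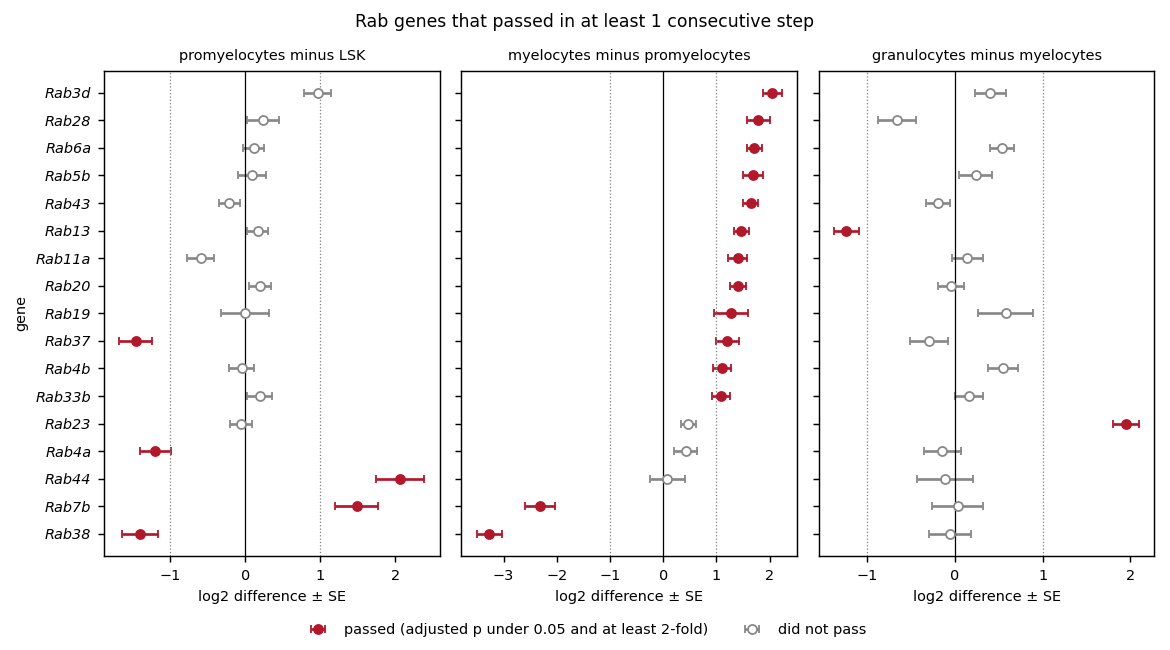
Points are the log2 differences with their standard errors for the 17 Rab genes called in at least 1 consecutive step, in the 3 steps from left to right; filled points passed and open points did not, and dotted lines mark a difference of 1 in either direction. The filled points of the middle panel lie to the right for 12 genes and to the left for Rab7b and Rab38, while the panels beside it hold 5 and 2 filled points.

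The bases before the start of the genes that were higher in myelocytes were searched for short motifs of factors known in myeloid cells, in the 250 bases before each RefSeq start (GRCm38.p6), on both strands. Of the 12 genes, 11 had an entry, as had 48 of the 59 Rab genes. The letters GAGGAA, the core bound by the myeloid factor PU.1, were in 4 of the 11 (36.4%), against 16.7% of the Rab genes with an entry and 25.9% of all 27025 genes with one. The GC box GGGCGG was in 9 of the 11 (81.8%), against 75% of Rab genes and 35.4% of all genes, and the CCAAT letters were in 6 (54.5%), against 50% and 37.5%. The C/EBP letters TTGCNNAA were in 1 (9.09%), against 8.33% of Rab genes and 10.8% of all genes, the E-box CACGTG in 1 (9.09%), against 10.4% and 6.86%, and the ETS letters CCGGAAGT in 1 (9.09%), against 4.17% and 3.23%. The motifs can share bases, as a PU.1 and a CCAAT match do in Rab6a. The sequences shown are those of Rab3d, the member with the largest increase at this step, and of Rab6a and Rab33b, which hold the PU.1 letters more than once. Capitals mark GC boxes in Rab3d, which begin 194 and 31 bases before the start, and PU.1 letters in the other two, which begin 221 and 164 bases before the start in Rab6a and 156 and 31 bases before it in Rab33b. A match describes the letters only.
Rab3d, chr9:21918184-21918433, minus strand: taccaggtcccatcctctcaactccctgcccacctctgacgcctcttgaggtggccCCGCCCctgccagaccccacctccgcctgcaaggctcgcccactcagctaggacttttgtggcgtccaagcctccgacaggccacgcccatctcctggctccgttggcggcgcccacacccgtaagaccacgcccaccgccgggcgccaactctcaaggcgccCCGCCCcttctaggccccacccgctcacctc
Rab6a, chr7:100607336-100607585, plus strand: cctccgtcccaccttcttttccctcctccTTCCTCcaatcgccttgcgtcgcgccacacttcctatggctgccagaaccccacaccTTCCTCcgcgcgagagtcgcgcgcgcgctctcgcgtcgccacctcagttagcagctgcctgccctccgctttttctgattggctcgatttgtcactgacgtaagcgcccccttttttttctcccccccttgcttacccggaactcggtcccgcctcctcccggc
Rab33b, chr3:51483716-51483965, plus strand: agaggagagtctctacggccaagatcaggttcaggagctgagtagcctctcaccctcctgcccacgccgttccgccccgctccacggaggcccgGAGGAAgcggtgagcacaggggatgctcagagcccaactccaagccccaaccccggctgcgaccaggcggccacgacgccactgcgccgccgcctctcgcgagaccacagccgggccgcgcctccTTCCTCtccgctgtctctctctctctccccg

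Among the 9 Rabs of secretory granules and regulated release, Rab3d, Rab27a and Rab44 were higher in granulocytes than in LSK cells, and Rab37 was lowest in promyelocytes. Rab3d, a Rab of secretory granules that is known from mast cells and exocrine glands, stood at 6.06, 6.43 and 5.75 on the LSK arrays, 7.19, 7.01 and 6.93 on the promyelocyte arrays, 9.25, 9.21 and 8.82 on the myelocyte arrays and 9.43, 9.61 and 9.45 on the granulocyte arrays. No 2 populations overlapped, and each later one was above the one before it. The difference was 0.96 ± 0.18 in promyelocytes against LSK cells (adjusted p = 0.00174, under the 2-fold limit), 2.05 ± 0.18 in myelocytes against promyelocytes (4.14-fold, adjusted p = 1.84e-07) and 0.40 ± 0.18 in granulocytes against myelocytes (adjusted p = 0.123). Over the whole course it came to 3.42 ± 0.18 (10.7-fold, adjusted p = 3.00e-10), the largest increase of any Rab gene in these comparisons.

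Rab27a, which docks granules at the plasma membrane and whose loss causes Griscelli syndrome, moved in smaller steps. It stood at 9.68, 9.65 and 9.42 in LSK cells, 10.18, 10.21 and 10.00 in promyelocytes, 11.08, 11.10 and 11.01 in myelocytes and 11.19, 11.10 and 11.02 in granulocytes. Myelocytes and granulocytes overlapped, and the earlier populations were each apart from the next. Its difference in myelocytes against promyelocytes was 0.94 ± 0.13 (adjusted p = 2.89e-05), just under the 2-fold limit, and it was called over the whole course at 1.53 ± 0.13 (2.88-fold, adjusted p = 7.32e-08). Rab27b, its close relative that acts in mast cells and platelets, was at 4.95, 4.45 and 4.49 in LSK cells and had a mean under the dim level in the other populations, with array values of 3.24 to 4.74, so no fold is given.

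Rab44, a large Rab with EF-hand domains that is known from mast cell granules, reached its later level in promyelocytes. It stood at 7.90, 8.33 and 6.45 on the LSK arrays, 9.59, 9.50 and 9.77 on the promyelocyte arrays, 9.83, 9.52 and 9.74 on the myelocyte arrays and 9.66, 9.42 and 9.68 on the granulocyte arrays. The LSK arrays lay under all others, and the 3 later populations overlapped. The difference in promyelocytes against LSK cells was 2.06 ± 0.32 (4.18-fold, adjusted p = 0.000551), and it was 1.51 without LSK 3. In the later steps it was 0.08 ± 0.32 (adjusted p = 0.900) and -0.11 ± 0.32 (adjusted p = 0.835). Rab44 was the only Rab gene that was called lower in LSK cells than in each of the other populations, beside 0.712% of all genes. Such counts against each other population also used calls for myelocytes against LSK cells. Array values of other members can lie apart without a call. The LSK arrays were unequal in the same order in the mean of the 6 promyelocyte markers, at 9.81, 10.3 and 7.75. All 6 were above the dim level in LSK cells, and the part of promyelocyte messages in the LSK values was not tested.

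Rab37, which acts in mast cell and macrophage secretion, dipped in promyelocytes. It stood at 8.50, 8.25 and 8.48 in LSK cells, 7.05, 7.25 and 6.56 in promyelocytes, 8.55, 8.16 and 7.76 in myelocytes and 7.57, 8.17 and 7.85 in granulocytes. The promyelocyte arrays were under all 9 others. Rab37 fell by 1.46 ± 0.22 in promyelocytes against LSK cells (adjusted p = 0.000391) and rose by 1.20 ± 0.22 in myelocytes against promyelocytes (2.30-fold, adjusted p = 0.000358). The other 5 Rabs of this group, Rab27b among them, were not called. Rab3a and Rab26 had means of 4.51 to 4.75 in the 4 populations, near the dim level, and Rab3b and Rab3c were under it throughout.

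**Figure D3:**
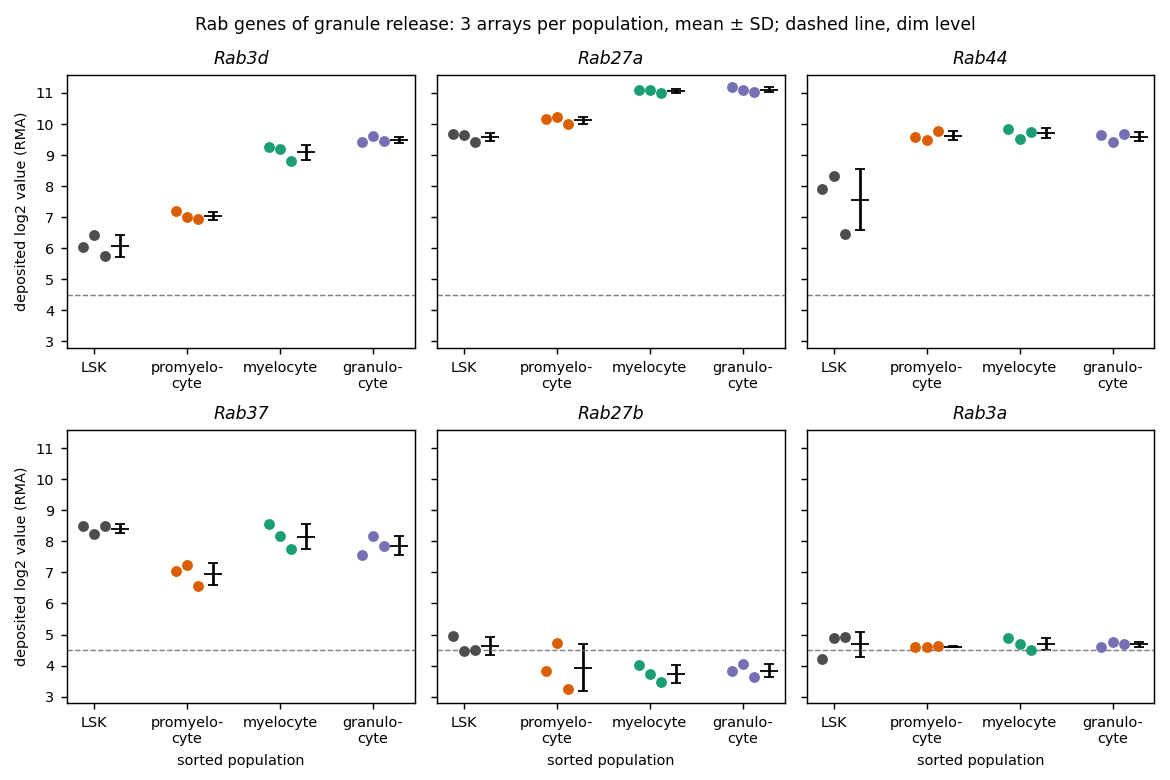
Points are the 3 arrays of each population, in stage order, for 6 Rabs of granule release, with the mean and SD beside them and the dim level of 4.51 as a dashed line. Rab3d and Rab27a climb through myelocytes, Rab44 is at its plateau in promyelocytes, Rab37 dips there, and Rab27b and Rab3a stay near or under the dim level.

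The 11 Rabs of late endosomes, lysosomes and phagosomes held the largest decreases of the family. Rab38, which brings enzymes to melanosomes and other lysosome-related organelles, stood at 9.07, 8.56 and 9.58 in LSK cells, 7.51, 8.19 and 7.32 in promyelocytes, 4.43, 4.55 and 4.25 in myelocytes and 4.46, 4.25 and 4.35 in granulocytes. LSK cells, promyelocytes and myelocytes did not overlap, and myelocytes and granulocytes were dim. Rab38 fell by 1.40 ± 0.24 in promyelocytes against LSK cells (adjusted p = 0.00106) and then fell by 3.26 ± 0.24 in myelocytes against promyelocytes (adjusted p = 3.43e-08). Granulocytes against LSK cells gave -4.72 ± 0.24 (adjusted p = 2.55e-10), and no fold is given since the later populations were dim. It was the only Rab gene that was called higher in LSK cells than in each other population, beside 1.62% of all genes.

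Rab32, the nearest relative of Rab38 and a Rab of the same organelles, ran the other way. It stood at 7.43, 7.53 and 7.79 in LSK cells, 8.57, 8.08 and 8.09 in promyelocytes, 8.73, 8.52 and 8.63 in myelocytes and 9.50, 9.51 and 9.43 in granulocytes. The granulocyte arrays were above all others, and promyelocytes and myelocytes overlapped. No single step was called, and the whole course gave 1.89 ± 0.16 (3.71-fold, adjusted p = 5.00e-08). The difference between the changes of the 2 genes was not tested.

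Rab7b is a Rab of traffic between late endosomes, lysosomes and the Golgi. No other Rab gene was called higher in promyelocytes than in each other population, beside 0.471% of all genes. Rab7b stood at 5.25, 5.12 and 4.23 in LSK cells, 6.21, 7.06 and 5.79 in promyelocytes, 4.20, 3.81 and 4.10 in myelocytes and 3.89, 4.15 and 4.16 in granulocytes. Its promyelocyte arrays were above the 9 others. The difference was 1.49 ± 0.29 in promyelocytes against LSK cells (2.80-fold, adjusted p = 0.00261), and it fell by 2.31 ± 0.29 to a dim level in myelocytes against promyelocytes (adjusted p = 9.13e-06). The eosinophil, basophil and mast cell, and monocyte and macrophage marker means were also higher on the promyelocyte arrays than on the LSK arrays, and the part of those cells in the Rab7b value was not tested.

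Rab7, the main Rab of fusion with lysosomes, stood at 8.25, 8.32 and 8.04 in LSK cells, 8.76, 8.50 and 8.55 in promyelocytes, 9.61, 9.24 and 9.19 in myelocytes and 9.68, 9.50 and 10.10 in granulocytes. Each population lay above the one before, with overlap between myelocytes and granulocytes alone. No single step was called, and Rab7 was higher by 1.56 ± 0.17 in granulocytes than in LSK cells (adjusted p = 1.33e-06). Rab20, which takes part in maturation of phagosomes, rose at a single step. It stood at 5.39, 5.38 and 5.31 in LSK cells, 5.35, 5.53 and 5.78 in promyelocytes, 7.18, 6.85 and 6.83 in myelocytes and 6.98, 6.94 and 6.79 in granulocytes. Its difference in myelocytes against promyelocytes was 1.40 ± 0.15 (2.64-fold, adjusted p = 1.71e-06), with no overlap between either early and either late population. Rab24, a Rab linked to autophagy, was called over the whole course only, at 1.37 ± 0.18 (adjusted p = 9.83e-06). The other 5 members of the group, Rab9, Rab9b, Rab34, Rab39 and Rab39b, were not called in any comparison.

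**Figure D4:**
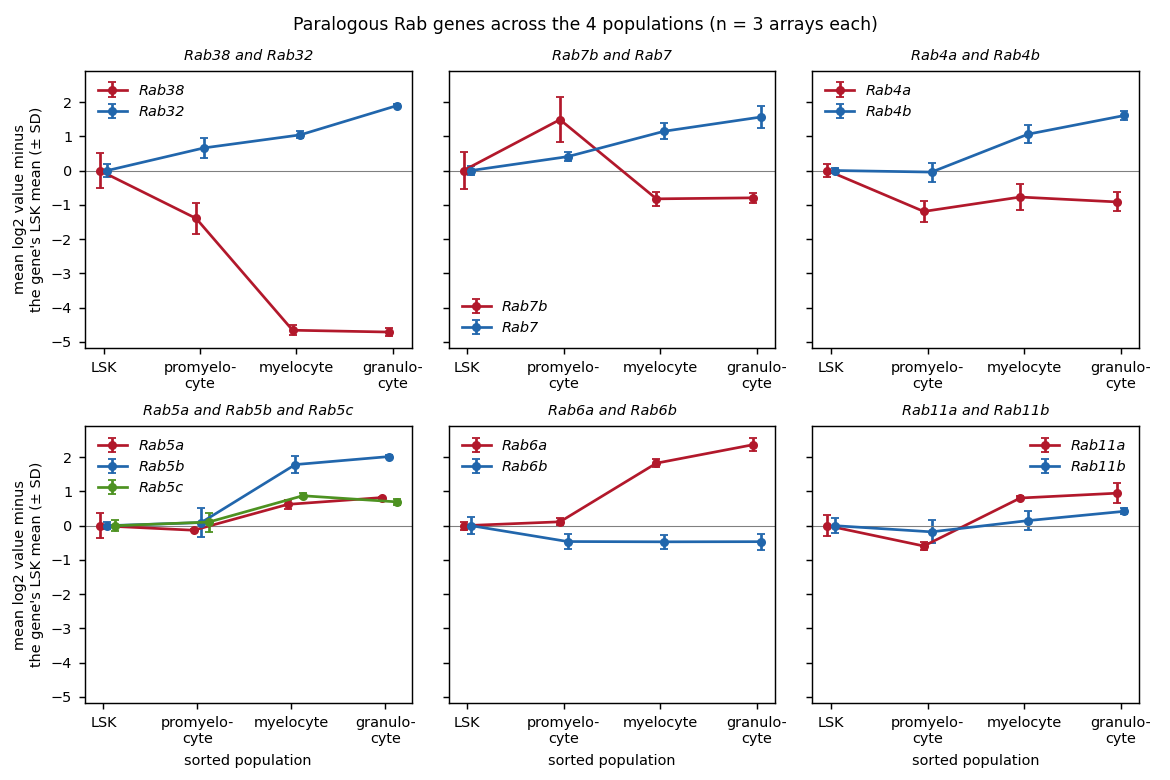
Lines join the mean log2 values of related Rab genes over the 4 populations, each minus the gene's own LSK mean, with SD over 3 arrays; the scale is of differences and does not compare levels between genes. Rab4b, Rab5b, Rab6a and Rab11a lie higher from the myelocyte stage on, and Rab32 and Rab7 lie above their LSK means from promyelocytes on. Rab38 and Rab4a fall, Rab7b peaks in promyelocytes and Rab6b stays within 0.47 of its LSK mean.

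Of 15 Rabs of early and recycling endosomes, 3 were called higher in myelocytes than in promyelocytes (20%) and none lower. The shares of all genes were 7.61% and 9.87%. Without the fold limit, 10 were higher and 0 lower by limma's adjusted p, beside 15.6% and 19.1% of all genes. Rab5b, which with Rab5a and Rab5c controls fusion of early endosomes, stood at 8.15, 8.02 and 8.23 in LSK cells, 8.55, 8.39 and 7.74 in promyelocytes, 10.13, 9.96 and 9.65 in myelocytes and 10.12, 10.15 and 10.18 in granulocytes. The early pair of populations overlapped, as did the late pair, and the 2 pairs were apart. The difference in myelocytes against promyelocytes was 1.69 ± 0.19 (3.23-fold, adjusted p = 3.01e-06). A further array row for Rab5b gave 1.82 for the same difference. For Rab5a the difference was 0.75 ± 0.16 (adjusted p = 0.00153) and for Rab5c 0.77 ± 0.15 (adjusted p = 0.000777), both under the 2-fold limit.

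Rab11a, the Rab of slow recycling, had its low point in promyelocytes. It stood at 8.53, 8.00 and 7.98 in LSK cells, 7.61, 7.67 and 7.45 in promyelocytes, 9.06, 8.91 and 8.97 in myelocytes and 9.26, 9.31 and 8.79 in granulocytes. The promyelocyte arrays were under all others, and myelocytes and granulocytes overlapped above the LSK arrays. The difference was -0.59 ± 0.18 in promyelocytes against LSK cells (adjusted p = 0.0353, under the 2-fold limit) and 1.40 ± 0.18 in myelocytes against promyelocytes (2.64-fold, adjusted p = 9.46e-06). Rab11b was not called in any comparison, and its mean lay between 9.27 and 9.87.

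Rab4a and Rab4b, which serve fast recycling to the surface, moved at different steps, Rab4a down and Rab4b up. Rab4a stood at 6.74, 6.36 and 6.52 in LSK cells, 5.52, 5.53 and 4.98 in promyelocytes, 6.19, 5.62 and 5.48 in myelocytes and 5.34, 5.89 and 5.63 in granulocytes. It fell by 1.20 ± 0.21 in promyelocytes against LSK cells (adjusted p = 0.00131), with the LSK arrays above all others. Rab4b stood at 7.60, 7.47 and 7.55 in LSK cells, 7.77, 7.48 and 7.22 in promyelocytes, 8.88, 8.55 and 8.36 in myelocytes and 9.01, 9.13 and 9.29 in granulocytes. Its difference in myelocytes against promyelocytes was 1.11 ± 0.17 (2.15-fold, adjusted p = 6.95e-05), but it missed the 2-fold limit without promyelocyte 3 (0.97) or without myelocyte 1 (0.96). Over the whole course Rab4b was higher by 1.61 ± 0.17 (adjusted p = 7.36e-07). Rab31 (1.34 ± 0.18) and Rab21 (1.14 ± 0.15), Rabs of endosomes, were called over that course too. Rab35, a further Rab of fast recycling, was called in granulocytes against promyelocytes alone, at 1.06 ± 0.16 (adjusted p = 3.93e-05), and missed the 2-fold limit without promyelocyte 3 (0.97) or without granulocyte 3 (0.90). Rab14, Rab15, Rab17, Rab22a and Rab25 were not called.

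Of 12 Rabs of the endoplasmic reticulum and the Golgi, Rab6a, Rab43 and Rab33b were called higher in myelocytes than in promyelocytes (25%) and none lower. All genes gave 7.61% higher and 9.87% lower. Rab6a, which carries vesicles within and away from the Golgi, stood at 7.71, 7.55 and 7.49 in LSK cells, 7.82, 7.65 and 7.62 in promyelocytes, 9.53, 9.37 and 9.32 in myelocytes and 9.89, 9.80 and 10.15 in granulocytes. LSK cells and promyelocytes overlapped, and the later populations were each above the one before. The difference was 1.71 ± 0.14 in myelocytes against promyelocytes (3.28-fold, adjusted p = 1.05e-07), and 0.54 ± 0.14 in granulocytes against myelocytes (adjusted p = 0.0110, under the 2-fold limit). Rab6b, which is known mainly from neurons, was not called and had means of 5.57, 5.11, 5.10 and 5.10 from LSK cells to granulocytes.

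Rab43, a Rab of traffic at the Golgi, stood at 6.86, 6.70 and 6.80 in LSK cells, 6.66, 6.52 and 6.54 in promyelocytes, 8.35, 8.14 and 8.17 in myelocytes and 8.09, 7.82 and 8.17 in granulocytes. Every late array was above every early one. Its difference in myelocytes against promyelocytes was 1.64 ± 0.14 (3.13-fold, adjusted p = 1.20e-07). Rab33b, which binds the autophagy protein Atg16l1, stood at 6.52, 6.21 and 6.04 in LSK cells, 6.21, 6.40 and 6.73 in promyelocytes, 7.58, 7.48 and 7.54 in myelocytes and 7.84, 7.57 and 7.66 in granulocytes. The difference was 1.09 ± 0.16 (2.12-fold, adjusted p = 5.98e-05), and without promyelocyte 1 it was 0.97, under the 2-fold limit. Rab1b, of traffic from the endoplasmic reticulum to the Golgi, was called over the whole course at 1.46 ± 0.34 (adjusted p = 0.00179) and had unequal arrays, with 8.94, 8.37 and 7.64 in LSK cells. Rab1a, Rab2a, Rab2b, Rab18 and the remaining 4 members of the group were not called.

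Of the 4 Rabs of delivery to the plasma membrane, Rab13 had a mean above the dim level in myelocytes only. Rab13, known from tight junctions of epithelia, stood at 3.91, 4.06 and 3.86 in LSK cells, 4.23, 4.10 and 4.01 in promyelocytes, 5.51, 5.52 and 5.69 in myelocytes and 4.12, 4.47 and 4.43 in granulocytes. The myelocyte arrays were above all others. The difference was 1.46 ± 0.14 in myelocytes against promyelocytes (adjusted p = 5.50e-07) and it fell by 1.24 ± 0.14 in granulocytes against myelocytes (adjusted p = 1.18e-05). It was the only Rab gene that was called higher in myelocytes than in each other population, beside 0.396% of all genes. The basophil and mast cell marker mean, with 6 of its 8 genes above the dim level in myelocytes and 4 in granulocytes, was also lower in granulocytes, at 5.31 to 5.51, against 7.46 to 9.23 in myelocytes. The part of those cells in the Rab13 value was not tested. Rab8a and Rab8b, of transport from the Golgi to the surface, were called over the whole course at 1.45 ± 0.15 and 1.29 ± 0.14, and Rab10 was not called.

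Of the 8 remaining Rabs, Rab23 was the only gene of the family that was called higher at the last step. Rab23, a negative regulator of Hedgehog signalling in the mouse, stood at 5.61, 5.35 and 5.41 in LSK cells, 5.15, 5.38 and 5.67 in promyelocytes, 5.98, 5.86 and 5.79 in myelocytes and 7.80, 7.83 and 7.86 in granulocytes. The granulocyte arrays agreed closely and were above all others. The difference was 1.95 ± 0.15 in granulocytes against myelocytes (3.87-fold, adjusted p = 3.73e-07). Rab23 was the only Rab gene that was called higher in granulocytes than in each other population, beside 1.91% of all genes.

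Rab28, a Rab of cilia and photoreceptors, stood at 6.75, 6.07 and 6.18 in LSK cells, 6.98, 6.62 and 6.10 in promyelocytes, 8.38, 8.37 and 8.32 in myelocytes and 7.57, 7.63 and 7.88 in granulocytes. Myelocytes were above all others, with a difference of 1.79 ± 0.21 against promyelocytes (3.46-fold, adjusted p = 5.49e-06) and a later difference of -0.66 ± 0.21 in granulocytes against myelocytes (adjusted p = 0.0360, under the 2-fold limit). Rab19 rested on unequal arrays. It stood at 4.45, 4.94 and 4.84 in LSK cells, 4.98, 4.54 and 4.71 in promyelocytes, 7.03, 5.69 and 5.34 in myelocytes and 6.59, 6.89 and 6.32 in granulocytes. Its difference in myelocytes against promyelocytes was 1.28 ± 0.32 (2.42-fold, adjusted p = 0.00443), and without myelocyte 1 it was 0.77 (adjusted p = 0.0101), under the 2-fold limit. Myelocyte 1 was also the highest of the myelocyte arrays in the mean of the 8 basophil and mast cell markers and in that of the 6 monocyte and macrophage markers, and the part of those cells was not tested. In granulocytes Rab19 was higher by 1.85 ± 0.32 than in LSK cells (adjusted p = 0.000131). Rab12, Rab29, Rab40b, Rab40c and Rab42 were not called.

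The genes that load, unload and read the Rabs were described from lists of known partners, as counts beside the background of 7.61% higher and 9.87% lower at the step to the myelocyte. Of 31 measured exchange factors, 9 were higher in myelocytes than in promyelocytes (29.0%) and 0 lower by limma's adjusted p with the 2-fold limit. Without the fold limit, 15 were higher and 6 lower by adjusted p, beside 15.6% and 19.1% of all genes. At an unadjusted p under 0.05, 8 were lower. Rin2, which loads Rab5, was higher by 2.99 ± 0.19 and Dennd1c, of the family that loads Rab35, by 2.89 ± 0.22. Dennd3, which loads Rab12, was higher by 1.70 ± 0.15 at this step and by a further 1.59 ± 0.15 in granulocytes against myelocytes, and Dennd2a, a factor for Rab9, was higher by 1.85 ± 0.14 over a dim promyelocyte level. Of 36 GTPase activating proteins, 9 were higher (25%) and 3 lower (8.33%). This list was even with no limit on the fold, at 11 higher and 11 lower by limma's adjusted p. Its median difference was 0.10. Tbc1d8 was higher by 3.29 ± 0.17, Tbc1d2, which acts on Rab7, by 1.70 ± 0.17, Tbc1d10c by 1.68 ± 0.20 and Tbc1d24 by 1.41 ± 0.16.

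Without the fold limit, 4 of 17 effectors of Rab3 and Rab27 were higher and 1 lower in myelocytes by limma's adjusted p. With that limit 4 were higher (23.5%) and 0 lower. These were Unc13d (1.67 ± 0.15), the Munc13-4 protein that primes granules for fusion, Sytl1 (1.43 ± 0.16) and Sytl3 (2.10 ± 0.42 over a dim promyelocyte level), synaptotagmin-like proteins that bind Rab27, and Myo5a (1.41 ± 0.15), the motor that Rab27a recruits to melanosomes. Sytl3 fell by 1.25 ± 0.42 again in granulocytes against myelocytes (adjusted p = 0.0433). Of 23 effectors of other Rabs, 4 were higher (17.4%) and 2 lower (8.70%). Lrrk2, the kinase that phosphorylates several Rabs, had the largest difference of the partners at this step, granule contents aside, at 3.70 ± 0.15 (adjusted p = 5.68e-11), followed by the Rab11 effector Rab11fip1 (1.80 ± 0.17) and the Rab7 effector Plekhm1 (1.78 ± 0.15), while the Rab9 effector Rabepk fell by 1.22 ± 0.18.

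Of 35 SNAREs and their regulators, 6 were higher (17.1%) and 1 lower (2.86%). Stx11, the syntaxin of cytotoxic granule release, was higher by 2.64 ± 0.20, Stx2 by 1.56 ± 0.13 and Vamp5 by 1.54 ± 0.16, and the syntaxin-binding gene Stxbp4 fell by 2.45 ± 0.27 to a dim level. Of 26 members of tethering complexes, 3 were higher (11.5%) and 0 lower. The 3 higher were the exocyst subunits Exoc6 (1.15 ± 0.17), Exoc1 (1.10 ± 0.14) and Exoc3 (1.02 ± 0.22). Without the fold limit, 8 of this list were higher and 1 lower by limma's adjusted p, and 3 were lower at an unadjusted p under 0.05. Of 19 genes of lysosome-related organelles, 2 were higher (10.5%) and 1 lower (5.26%), shares near those of all genes. Lyst, which is mutated in Chediak-Higashi syndrome with its giant granules, was higher by 2.25 ± 0.16 and Nbeal2, the gene of gray platelet syndrome, by 1.85 ± 0.19, and Bloc1s5 fell by 1.04 ± 0.16. Of 7 genes that prenylate, escort, extract or otherwise bind Rabs, 1 was higher (14.3%) and 1 lower (14.3%). Rabif was higher by 1.37 ± 0.18 and Rabggtb, the beta subunit of the enzyme that prenylates Rabs, fell by 1.81 ± 0.24.

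**Figure D5:**
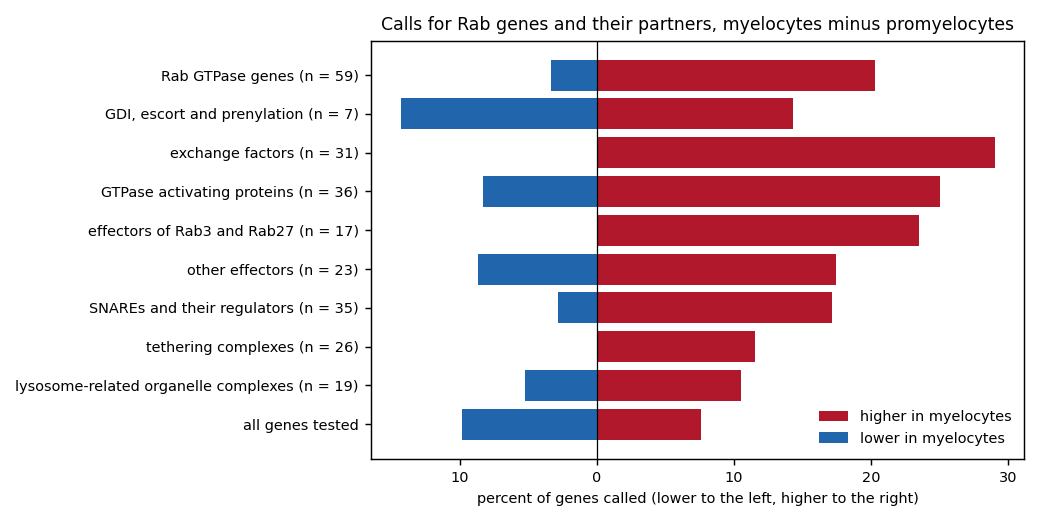
Bars give the percent of measured genes in each list that passed in myelocytes against promyelocytes, in red to the right for higher and in blue to the left for lower, starting at 0, with the number measured in brackets. Rab genes reached 20.3% higher and 3.39% lower, exchange factors 29.0% higher and none lower, against 7.61% and 9.87% of all genes tested. Without the fold limit, 15 of 31 exchange factors were higher and 6 lower by limma's adjusted p, beside 15.6% and 19.1% of all genes.

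The granule contents turned over at the same step. All 6 promyelocyte markers, most of them primary granule genes, fell in myelocytes against promyelocytes, with a median difference of -3.50. All 7 secondary granule genes rose, with a median of 5.08. Both lists hold stage markers used above, so these directions were fixed in part by how the genes were picked. Mpo, the myeloperoxidase of primary granules, fell by 3.85 ± 0.37, and Ltf, the lactoferrin of secondary granules, rose by 4.87 ± 0.24.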

How the data were processed

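The authors deposited log2 values from justRMA of Bioconductor, whose steps are background correction, quantile normalization and median polish (its version is not given in the sources read). Names came from the platform's probe table, where 21640 of 34760 rows had 1 symbol, 1321 several and 11799 none. The row with the highest mean was taken per gene, which mattered for 3 Rab genes (Rab2a, Rab5b and Rab11b). Their other rows read lower. Population means were 5.55 to 7.65 on the other Rab5b row, against 8.13 to 10.15 on the row taken. For Rab11b they were 5.65 to 6.01 against 9.27 to 9.87. Which locus the probes of each row match was not checked, so the levels of these genes depend on the row. All 59 members matched the RefSeq gene table.

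One model of 4 group means was fitted to 12 arrays by lmFit and eBayes (limma 3.58.1, R 4.3.3), with Benjamini-Hochberg adjustment over 19937 genes. Calls needed an adjusted p under 0.05 and a 2-fold difference. Folds are left out for groups with a mean of 4.51 or less. The median SD within a group was 0.21, and precision is limited by the number of arrays. The fit was tested on simulated data.

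The members, the lists of roles, partners and markers and the tests were chosen with earlier results of these data known. Arrays are given in full for members called in a consecutive step and for 5 granule Rabs, with Rab32 and Rab7 added after their values were seen, and at most 4 partners are named per list and comparison. Deviations of same-numbered myelocyte and promyelocyte arrays correlated at 0.12 to 0.20 in all 3 pairs, and over all populations 7 of 18 pairs were over 0.1. The study's miRNA measurements were not used here. Rab38 and Rab5b were among messages that the study predicted as miRNA targets on these arrays. Alternatives were other centring, normalization, rows, filters, thresholds, a block and each array left out.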

Additional observations from a re-analysis of the deposited data

How the results depend on the processing

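Of 61 called member differences, 53 were called under every alternative, 8 were lost under at least 1 and 0 reversed. The alternatives with a looser threshold could lose no call. Those with another choice of rows could change the values of only 3 Rab genes. With no limit on the fold the counts were 5 higher in promyelocytes than LSK cells, 27 higher in myelocytes than promyelocytes, 5 higher and 2 lower in granulocytes than myelocytes, 30 higher in granulocytes than promyelocytes, and 33 higher and 10 lower in granulocytes than LSK cells. With each array centred on its 75th percentile, 2 were higher in granulocytes than myelocytes, and the median of all genes was 0.36 for granulocytes minus promyelocytes, 0.39 for granulocytes minus LSK and 0.25 for granulocytes minus myelocytes, against 0.13, 0.17 and 0.09 as deposited. Leaving out 1 array at a time gave 2 to 4 higher and 3 to 4 lower for promyelocytes minus LSK, 11 to 15 higher and 2 lower for myelocytes minus promyelocytes, 1 to 2 higher and 1 lower for granulocytes minus myelocytes, 13 to 19 higher and 2 lower for granulocytes minus promyelocytes, 20 to 21 higher and 1 to 2 lower for granulocytes minus LSK, and 36 to 44 differing among the 4 populations. For granulocytes minus promyelocytes the calls of Rab35 (0.90 to 0.97), Rab8a (0.92 to 1.00), Rab28 (0.90), Rab31 (1.00) and Rab7 (0.98) fell just under the 2-fold limit under some alternatives, the causes not being tested. Of 17 further differences that were not called, 8 passed under at least 1 alternative, among them Rab3d for promyelocytes minus LSK (1.04 with each array centred on its median). Some near 0 that are not called changed sign. With 75th percentile centring Rab27b was at 0.12 for granulocytes minus promyelocytes, and Rab44 at 0.049 for granulocytes minus myelocytes and 0.19 for granulocytes minus promyelocytes. With 1 array left out, Rab27b ran from -0.56 to 0.19 for myelocytes minus promyelocytes, from -0.026 to 0.25 for granulocytes minus myelocytes and from -0.45 to 0.30 for granulocytes minus promyelocytes, Rab44 from -0.097 to 0.048 for granulocytes minus promyelocytes, and Rab27a from -8.3e-05 to 0.085 for granulocytes minus myelocytes. With the replicate number as a block, the counts for myelocytes minus promyelocytes were 12 higher and 2 lower, in the fit of all groups and, added after seeing the data, in a fit of those 2 groups alone, and the block changed no other count; 8 of 12 arrays correlated best with arrays of their own number, a hint from the data and not from the design.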

Other observations

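Partners of the Rabs passed in the other comparisons too. In granulocytes against LSK cells 9 of 31 exchange factors were higher and 3 lower, and 10 and 6 of 36 GTPase activating proteins. Of 17 effectors of Rab3 and Rab27, 2 were higher and 0 lower. Without the fold limit, 6 of them were higher and 1 lower by limma's adjusted p. Of 23 effectors of other Rabs 6 were higher and 3 lower, and of 35 SNAREs and their regulators 10 and 1. Of 26 members of tethering complexes 1 was higher and 1 lower, and of 19 genes of lysosome-related organelles 4 and 2. Of 7 genes that prenylate, escort, extract or otherwise bind Rabs, 2 were higher and 1 lower. Over all genes the shares were 9.59% and 16.5%. In promyelocytes against LSK cells, where 1.61% of all genes were higher and 2.75% lower, 1 gene of lysosome-related organelles was higher, the AP-3 subunit Ap3s1 (1.23 ± 0.29), and the lower partners were the exchange factor Dennd1c (-1.30 ± 0.22), the GTPase activating proteins Sgsm1 (-1.42 ± 0.14, to a dim level), Tbc1d10c (-1.05 ± 0.20) and Tbc1d9 (-1.04 ± 0.17), Stxbp4 (-3.40 ± 0.27), Vamp5 (-1.24 ± 0.16) and the exocyst gene Exoc6b (-1.04 ± 0.17). Dennd1c, Tbc1d10c and Vamp5 were then higher in myelocytes than in promyelocytes, as Rab37 was. Among those that passed in granulocytes against myelocytes, where 2.35% of all genes were higher and 5.96% lower, Tbc1d14, which takes part in autophagy, was higher by 2.05 ± 0.16, Rab11fip1 by 1.42 ± 0.17, Rab11fip4 by 1.38 ± 0.15 and the SNARE Snap23 by 1.28 ± 0.20, while the phosphatase Ocrl fell by 1.73 ± 0.17 and Tbc1d24 by 1.49 ± 0.16.

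Rab10os, the opposite-strand transcript that was left out of the members, had means of 6.40, 6.27, 6.35 and 6.39 from LSK cells to granulocytes. For the other members with several array rows, the step to the myelocyte was 0.74 on the row taken and 0.77 on the other for Rab2a, and 0.33 and 0.10 for Rab11b.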
